A study of Homo sapiens with 9 samples.

Results

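Cells of the human breast cancer line MDA-MB-231 were examined for the mRNA of 37 genes that build, regulate or move cholesterol and fatty acids. The genes were a given list of sterol synthesis enzymes, regulators of the SREBP transcription factors, sterol transport or efflux genes and lipogenic enzymes, taken by symbol out of 26364 genes in the count tables. The list was selected on the mRNA levels of these libraries, since the GLO1-silenced clones appeared to differ in it. All 37 genes were listed in all 9 tables, and all 37 passed the filter on low counts, as 13704 genes did in all. ABCG1 passed it only through its counts in shGLO1#2, the group where it is high.

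The study had 3 groups of 3 RNA libraries each, all from MDA-MB-231 cells. The shNT cells carried a non-targeting shRNA and were the control. The shGLO1#1 and shGLO1#2 clones were stably silenced with shRNAs against GLO1, the enzyme that removes methylglyoxal, a reactive by-product of glycolysis. Each group was 1 stable line, so that an effect of GLO1 loss and a difference between lines cannot be told apart, and the p-values below reflect only how libraries of the same line spread. No further treatment or time point is given in the labels. GLO1 mRNA was 317 ± 5.63 CPM (read counts scaled to the size of the library) in control cells, 65.4 ± 0.955 in clone shGLO1#1 and 14.7 ± 0.76 in clone shGLO1#2 (SD, n = 3).

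Cells make cholesterol from acetyl-CoA through the mevalonate pathway, squalene and lanosterol. When sterols in the endoplasmic reticulum are low, SCAP carries SREBP precursors to the Golgi, where they are cut, and the released factors switch on sterol genes (mainly SREBP-2, from SREBF2) and fatty acid genes (mainly SREBP-1, from SREBF1). When sterols are plentiful, INSIG proteins hold SCAP in the endoplasmic reticulum, and oxysterols activate liver X receptors, which switch on the efflux pumps ABCA1 and ABCG1. Dividing tumour cells need both kinds of lipid for new membranes.

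Promoter DNA is shown because SREBPs and NF-Y act together on sterol promoters, through sterol regulatory elements and CCAAT boxes respectively. The 250 bases before the start were read from RefSeq for 32 of the 37 genes (GRCh38.p14, a later build than the hg19 to which the authors aligned their reads). No promoter was read for FDFT1, SQLE, ACAT2, FASN and ABCG1, so the shares below leave these genes out. The motif TCACNCCAC, a core of the sterol regulatory element, was found on either strand in 1 of the 32, SREBF2, at 133 to 125 bases before the start. It is in capitals in this stretch upstream of the gene, at chr22:41832855-41833104 on the + strand.
SREBF2: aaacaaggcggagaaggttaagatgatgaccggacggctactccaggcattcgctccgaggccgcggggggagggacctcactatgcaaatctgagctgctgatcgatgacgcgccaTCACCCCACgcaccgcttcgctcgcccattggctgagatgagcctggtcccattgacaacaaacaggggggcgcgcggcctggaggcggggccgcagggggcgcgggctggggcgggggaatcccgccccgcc

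The genes with the lowest fold changes in shGLO1#1 among those with a RefSeq promoter were MVD, MSMO1, DHCR7 and HMGCS1, and they were chosen for display after their values had been seen. Capitals mark CCAAT and, where the box lies on the other strand, ATTGG. The stretches lie upstream of the annotated starts at chr16:88663092-88663341 (MVD, - strand), chr4:165327419-165327668 (MSMO1, + strand), chr11:71448394-71448643 (DHCR7, - strand) and chr5:43313413-43313662 (HMGCS1, - strand).
MVD: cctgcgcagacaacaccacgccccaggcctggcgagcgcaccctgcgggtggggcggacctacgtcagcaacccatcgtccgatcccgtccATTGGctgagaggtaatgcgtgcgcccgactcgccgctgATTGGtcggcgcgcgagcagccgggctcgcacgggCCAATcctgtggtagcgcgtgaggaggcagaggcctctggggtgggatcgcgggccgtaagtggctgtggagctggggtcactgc
MSMO1: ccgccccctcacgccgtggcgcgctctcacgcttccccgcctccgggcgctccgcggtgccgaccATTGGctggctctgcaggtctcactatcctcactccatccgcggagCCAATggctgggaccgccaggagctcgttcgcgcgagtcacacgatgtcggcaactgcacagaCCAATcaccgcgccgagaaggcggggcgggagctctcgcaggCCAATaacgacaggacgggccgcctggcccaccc
DHCR7: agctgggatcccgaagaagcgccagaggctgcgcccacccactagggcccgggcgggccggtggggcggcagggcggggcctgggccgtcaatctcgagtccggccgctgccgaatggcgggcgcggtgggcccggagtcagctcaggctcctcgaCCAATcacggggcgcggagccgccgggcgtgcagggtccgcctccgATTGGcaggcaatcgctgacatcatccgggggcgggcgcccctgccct
HMGCS1: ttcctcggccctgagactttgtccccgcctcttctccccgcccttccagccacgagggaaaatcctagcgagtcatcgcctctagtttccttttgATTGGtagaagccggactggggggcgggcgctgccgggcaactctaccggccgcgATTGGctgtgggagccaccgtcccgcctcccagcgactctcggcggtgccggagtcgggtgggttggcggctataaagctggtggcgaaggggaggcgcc

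The box occurred 3 times before MVD, 4 times before MSMO1, and 2 times each before DHCR7 and HMGCS1. CCAAT was found in 18 of the 32 promoters (56.2%), against 35.2% of the 10092 tested genes with a promoter and 33% of all 27305 promoters. By role it stood in 8 of 10 promoters of the squalene to cholesterol steps, 4 of 7 of the mevalonate pathway, 2 of 4 of the SREBP regulators, 2 of 4 of transport and efflux and 2 of 7 of fatty acid synthesis. GGGCGG, a box bound by Sp1, was in 29 promoters (90.6%, against 66.8% of tested genes and 42.3% of all). CACGTG, an E-box, was in 4 (12.5%, against 8.8% and 6.49%). The share with TCACNCCAC was 3.12% here, 0.872% among tested genes and 0.875% among all promoters. Matches are letters in these windows only, and no binding was measured.

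In the shGLO1#1 clone most cholesterol synthesis genes were lower than in shNT, while in shGLO1#2 most were near the shNT level. Of the 37 genes, 28 fell and 4 rose in shGLO1#1 at an adjusted p under 0.05. Changes are given as the log2 fold change against shNT (log2FC). Among all genes tested in that comparison, 23.1% fell and 22.6% rose. In shGLO1#2, 3 of the 37 fell and 8 rose, beside 19.8% and 18.3% of all genes. The median log2FC of the 37 was -0.45 in shGLO1#1 and 0.08 in shGLO1#2, where the median over all genes was 0 in both. When a log2FC over 1 in size was also required, 3 genes fell (MVD, ACAT2 and MSMO1) and 1 rose (ABCA1) in shGLO1#1, with 2.75% and 5.98% of all genes. In shGLO1#2 none fell, with 2.59% of all genes, and the 1 gene past this limit was ABCG1, with 5.09% of all genes. Since ABCG1 entered the test only through its shGLO1#2 counts, its call there supports nothing, and 7 rather than 8 genes rose when a mean level of 1 CPM was required, which leaves it out. Both comparisons use the same shNT libraries. The list was selected on mRNA levels of the libraries compared here, so the counts above are a description. In these bulk samples, fewer cells expressing a gene and less of its RNA per cell cannot be told apart.

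**Figure D1:**
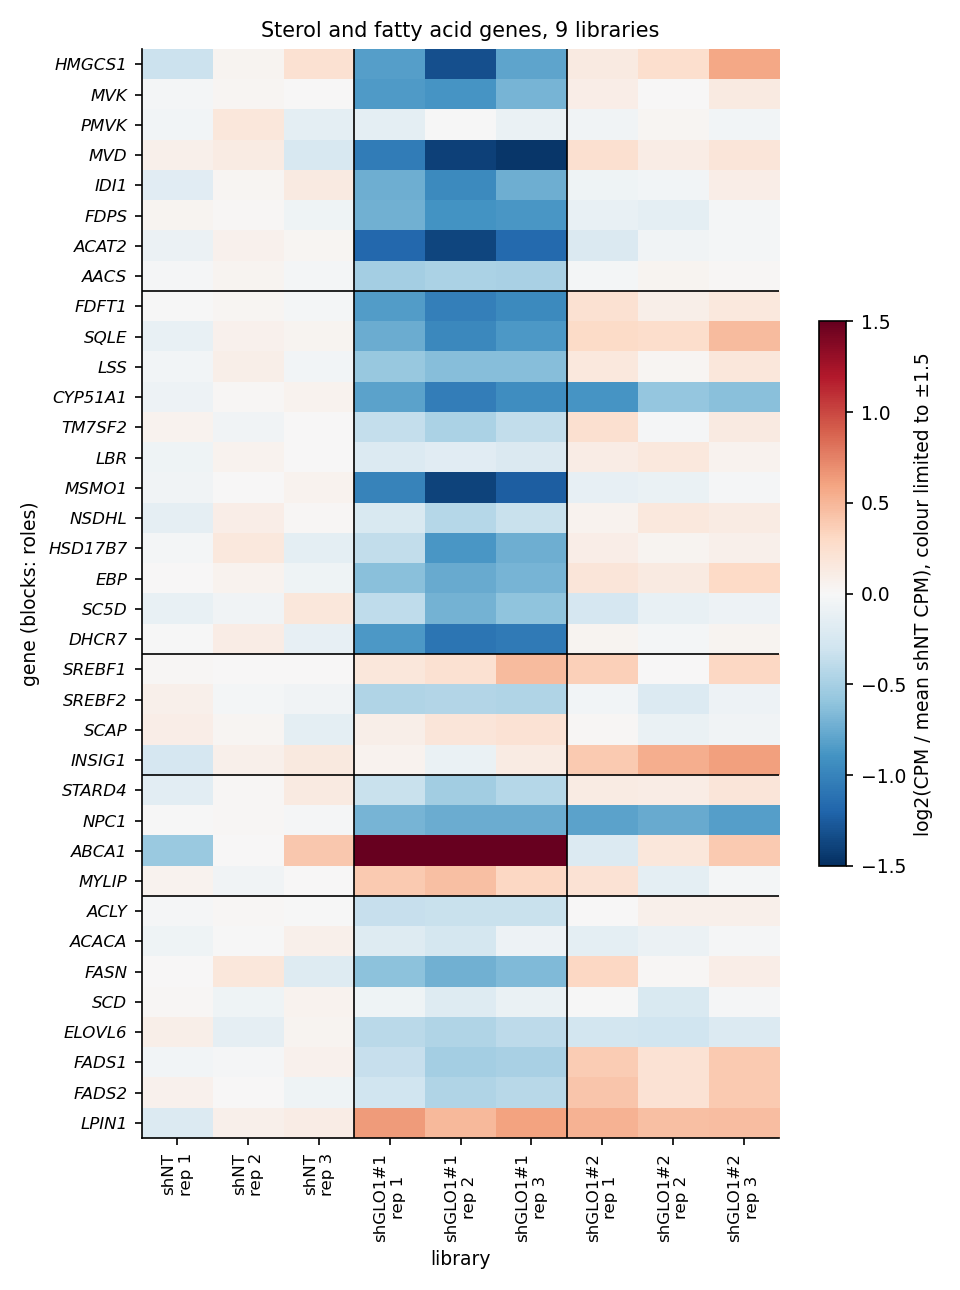
Heat map of log2(CPM divided by the mean shNT CPM) for 36 of the 37 genes (rows, in blocks by role) in 9 libraries (columns), with colours limited to ±1.5. ABCG1 is left out since 1 shNT library had no count. The mevalonate and squalene to cholesterol blocks are blue in all 3 shGLO1#1 libraries except for PMVK, and pale or light red in shGLO1#2 except for CYP51A1.

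Taken as a sum, the 37 genes held 9690, 9990 and 9927 CPM in the shNT libraries. The shGLO1#1 libraries held 7688, 7118 and 7555 CPM, below every shNT library. In shGLO1#2 the sum was 10210, 9567 and 10360 CPM, a range that overlapped that of shNT. As a share of the counts on genes, this was 0.942 to 0.985% in shNT, 0.73 to 0.801% in shGLO1#1 and 0.953 to 1.02% in shGLO1#2. The fatty acid genes SCD (2200 CPM on the shNT mean) and FASN (971 CPM) weighed most in the sum, so it is no measure of the sterol genes alone.

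The mevalonate pathway turns acetyl-CoA into farnesyl diphosphate. Of its 8 genes here, 7 fell in shGLO1#1 (median log2FC -0.82), and in shGLO1#2 none passed the test in either direction (median 0). Of all genes tested, 23.1% fell in shGLO1#1, and 19.8% fell and 18.3% rose in shGLO1#2. MVD, which decarboxylates mevalonate diphosphate, was at 57.6, 59.4 and 46.3 CPM in shNT replicates 1 to 3. In shGLO1#1 it was at 26.4, 20.6 and 19.8 CPM, so that every library lay below every shNT library. In shGLO1#2 it was at 64.6, 59 and 62 CPM, a range overlapping shNT. The log2FC of MVD was -1.29 in shGLO1#1 (SE 0.11, adjusted p = 1.09e-06) and 0.19 in shGLO1#2 (SE 0.11, adjusted p = 0.189), both by edgeR's quasi-likelihood test with Benjamini-Hochberg adjustment, as for all adjusted p below.

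ACAT2, the cytosolic thiolase that joins the first acetyl-CoA units, was at 165, 184 and 180 CPM in shNT and at 78.1, 67.9 and 78.5 CPM in shGLO1#1. Its shGLO1#2 libraries held 151, 169 and 173 CPM. The shGLO1#1 libraries stood apart from the rest, and ACAT2 was 2.36-fold lower there than in shNT (log2FC -1.24, SE 0.07, adjusted p = 4.51e-08). In shGLO1#2 the log2FC was -0.10 (adjusted p = 0.295). ACAT2 overlaps SOD2 and TCP1 on the genome, genes at up to 316 CPM on the group mean, and the library kit does not mark the strand. TCP1 itself had a log2FC of -0.34 in shGLO1#1 (SE 0.05, adjusted p = 9.12e-05) and of 0.00 in shGLO1#2. The part that reads from the overlap had in the ACAT2 values was not tested.

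HMGCS1, which makes HMG-CoA and so feeds the pathway, had the widest SE of the mevalonate genes. It was at 172, 221 and 252 CPM in shNT, at 121, 86.1 and 124 CPM in shGLO1#1 and at 236, 256 and 321 CPM in shGLO1#2. The shGLO1#1 libraries were below all others, whereas shNT and shGLO1#2 overlapped. HMGCS1 fell in shGLO1#1 with a log2FC of -0.96 (SE 0.15, adjusted p = 0.000185). In shGLO1#2 the log2FC was 0.33 (SE 0.15), with an adjusted p of 0.0977 without and 0.00681 with the replicate number as a block. The adjusted p of HMGCS1 in shGLO1#2 was also under the threshold without the filter on low counts (0.0166), without shNT replicate 3 (log2FC 0.47, 0.0373) and without shGLO1#2 replicate 1 (0.43, 0.0461).

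The other mevalonate genes that fell in shGLO1#1 were FDPS, which makes farnesyl diphosphate, mevalonate kinase (MVK), the isomerase IDI1 and AACS, which activates acetoacetate for lipid synthesis. FDPS was at 345 ± 13.1 CPM in shNT, fell to 194 ± 12.4 in shGLO1#1 and was at 322 ± 13.8 in shGLO1#2 (all ± are SD, n = 3). MVK was at 52.8 ± 1.06, 30.2 ± 2.08 and 55.8 ± 2.65 CPM in the same order, and IDI1 at 255 ± 27.2, 146 ± 11.8 and 254 ± 16.4 CPM. All of these fell to between 1.75-fold and 1.77-fold below shNT in shGLO1#1, and their shGLO1#2 values differed from shNT by less than the test could separate (adjusted p = 0.199 for FDPS, 0.396 for MVK and 0.969 for IDI1). AACS fell less, from 71.9 ± 1.81 to 51.2 ± 0.789 CPM, with 72.6 ± 1.81 CPM in shGLO1#2. PMVK, the kinase between MVK and MVD, was the exception. It was at 26.4 ± 2.95, 25 ± 1.25 and 26 ± 0.813 CPM in the 3 groups, and its adjusted p was 0.514 in shGLO1#1 and 0.915 in shGLO1#2. MVK overlaps MMAB (up to 35.2 CPM on the group mean) and IDI1 overlaps WDR37 and IDI2-AS1 (up to 49.6 CPM). The effect of these overlaps on the MVK and IDI1 values was not tested.

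The steps from squalene to cholesterol gave the most uniform result. All 12 genes fell in shGLO1#1 (median log2FC -0.67), whereas 3 rose and 1 fell in shGLO1#2 (median 0.11). Among all genes, 23.1% fell in shGLO1#1, and 18.3% rose and 19.8% fell in shGLO1#2. MSMO1, which oxidises the methyl groups of lanosterol derivatives, was at 308, 319 and 330 CPM in shNT. It was at 159, 122 and 135 CPM in shGLO1#1 and at 292, 297 and 315 CPM in shGLO1#2. Only the shGLO1#1 libraries stood apart. MSMO1 was 2.3-fold lower in shGLO1#1 (log2FC -1.20, SE 0.08, adjusted p = 9.78e-08), and its log2FC was -0.08 in shGLO1#2 (SE 0.08, adjusted p = 0.434).

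DHCR7, the reductase of the last step to cholesterol, was at 222, 240 and 205 CPM in shNT, at 123, 104 and 107 CPM in shGLO1#1 and at 230, 219 and 230 CPM in shGLO1#2. It fell 2-fold in shGLO1#1 (log2FC -1.0, SE 0.07, adjusted p = 1.87e-07) and was within the shNT range in shGLO1#2 (log2FC 0.02, SE 0.07, adjusted p = 0.816). The sterol isomerase EBP was at 69.2, 71.7 and 66 CPM in shNT and at 44.6, 41 and 42.5 CPM in shGLO1#1. In shGLO1#2 it was at 78.2, 76 and 85 CPM, above every shNT library. EBP fell in shGLO1#1 (log2FC -0.69, SE 0.06, adjusted p = 1.92e-06) and rose in shGLO1#2 (0.21, SE 0.06, adjusted p = 0.0178). The call of EBP in shGLO1#2 ended without shNT replicate 3 (log2FC 0.18, adjusted p = 0.0567) and without shGLO1#2 replicate 3 (0.17, 0.0731).

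Squalene synthase (FDFT1) and squalene epoxidase (SQLE), which commit carbon to sterols, also fell in 1 clone and rose in the other. FDFT1 was at 297, 306 and 293 CPM in shNT, 167, 147 and 154 CPM in shGLO1#1 and 349, 319 and 334 CPM in shGLO1#2. The 3 groups did not overlap. FDFT1 fell 1.92-fold in shGLO1#1 (log2FC -0.94, SE 0.06, adjusted p = 5.76e-08), and in shGLO1#2 its log2FC was 0.16 (SE 0.06, adjusted p = 0.0373). Its call in shGLO1#2 was fragile: without shNT replicates 1, 2 or 3 or shGLO1#2 replicates 1 or 3 in turn, the log2FC was 0.16, 0.18, 0.15, 0.14 and 0.17 and the adjusted p 0.088, 0.0538, 0.0864, 0.0968 and 0.0681. SQLE was at 51.9, 58.3 and 57.4 CPM in shNT, 33.4, 28.7 and 30.8 CPM in shGLO1#1 and 68, 67.2 and 77.9 CPM in shGLO1#2. These groups did not overlap either. The log2FC of SQLE was -0.85 in shGLO1#1 (SE 0.08, adjusted p = 2.28e-06) and 0.34 in shGLO1#2 (SE 0.08, adjusted p = 0.00313).

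CYP51A1, the lanosterol demethylase, was the 1 gene of these 12 that fell in both clones. It was at 340, 362 and 372 CPM in shNT, at 205, 175 and 188 CPM in shGLO1#1 and at 194, 240 and 232 CPM in shGLO1#2. All 6 libraries of the clones lay below shNT. The log2FC of CYP51A1 was -0.92 in shGLO1#1 (SE 0.08, adjusted p = 8.46e-07) and -0.69 in shGLO1#2 (SE 0.08, adjusted p = 1.31e-05).

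The remaining genes of this stage fell in shGLO1#1 by smaller amounts, and none passed the test in shGLO1#2. Lanosterol synthase (LSS) was at 185 ± 9.24 CPM in shNT, at 121 ± 3.29 in shGLO1#1 and 201 ± 10.1 in shGLO1#2. HSD17B7 and NSDHL, dehydrogenases of sterol demethylation, had log2FC values of -0.64 and -0.33 in shGLO1#1. The desaturase SC5D was at -0.57 and the sterol reductases TM7SF2 and LBR at -0.41 and -0.20 on the same scale. LBR, which also tethers chromatin to the nuclear envelope, thus had the smallest fall of the 12 (adjusted p = 0.00521). In shGLO1#2 the log2FC values of these 6 genes ran from -0.15 (SC5D) to 0.12 (LSS and TM7SF2). LSS passed in shGLO1#2 without shGLO1#2 replicate 2 (0.17, adjusted p = 0.0429). HSD17B7 has a pseudogene in the tables, HSD17B7P2, at up to 3 CPM on the group mean.

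**Figure D2:**
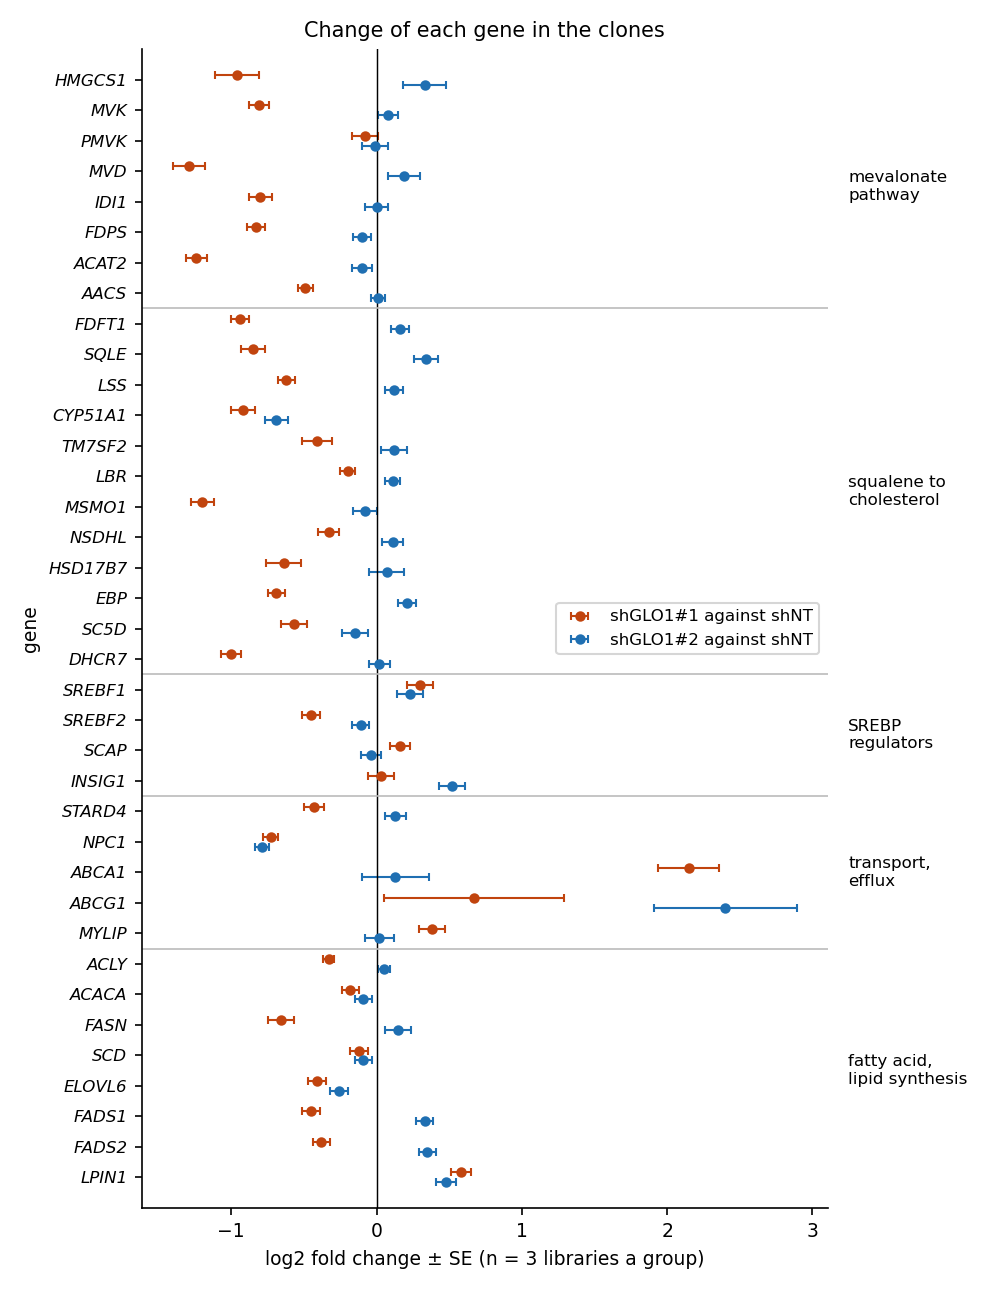
Log2 fold change against shNT (horizontal axis) of all 37 genes in shGLO1#1 (orange) and shGLO1#2 (blue), with SE bars and n = 3 libraries a group. In the upper blocks the orange points lie left of 0, down to -1.29 for MVD, and the blue points lie at up to 0.34 to its right or close to it except for CYP51A1 at -0.69. ABCA1 in shGLO1#1 and ABCG1 in shGLO1#2 lie farthest right, at 2.15 and 2.40, the latter on few counts.

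The SREBP regulators did not move as a block. SREBF2 encodes SREBP-2, and the stretch before its start holds the motif match shown above. It was at 307, 287 and 282 CPM in shNT and at 214, 215 and 213 CPM in shGLO1#1. Its shGLO1#2 libraries held 284, 253 and 278 CPM. The shGLO1#1 libraries lay below the rest and close together, and SREBF2 fell there with a log2FC of -0.45 (SE 0.06, adjusted p = 2.22e-05). In shGLO1#2 it was at -0.11 (SE 0.06, adjusted p = 0.156). INSIG1, which holds SCAP in the endoplasmic reticulum and is itself an SREBP target, behaved otherwise. It was at 211, 265 and 280 CPM in shNT, at 261, 236 and 274 CPM in shGLO1#1 and at 330, 367 and 386 CPM in shGLO1#2. INSIG1 rose in shGLO1#2, where every library was above all others (log2FC 0.52, SE 0.09, adjusted p = 0.000658). In shGLO1#1 it overlapped shNT, with a log2FC of 0.03 (SE 0.09, adjusted p = 0.837).

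SREBF1, which encodes SREBP-1, was at 157, 155 and 155 CPM in shNT. It was at 175, 182 and 216 CPM in shGLO1#1 and at 198, 156 and 193 CPM in shGLO1#2. In shGLO1#1 SREBF1 rose (log2FC 0.30, SE 0.09, adjusted p = 0.0153), but not without shGLO1#1 replicate 3 (0.20, adjusted p = 0.0823). In shGLO1#2 its log2FC was 0.23 (SE 0.09), with an adjusted p of 0.0599 without and 0.0111 with the replicate block. For SREBF1 in shGLO1#2 the adjusted p also came under the threshold without the filter on low counts (0.0198), with the other clone left out of the model (0.0469), with DESeq2 (0.0442), without shGLO1#1 replicate 3 (0.0328) and without shGLO1#2 replicate 2 (log2FC 0.34, 0.00561). SREBF1 overlaps RAI1, at up to 49.8 CPM. SCAP, the escort of the SREBPs, was at 75.8 ± 6.69 CPM in shNT, at 84.8 ± 3.99 in shGLO1#1 and 73.6 ± 2.99 in shGLO1#2. Its adjusted p was 0.0698 in shGLO1#1, and 0.0328 without shNT replicate 1 (log2FC 0.22). For shGLO1#2 it was 0.684.

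Among the 5 transport and efflux genes, 2 rose and 2 fell in shGLO1#1, and 1 rose (ABCG1, on few counts) and 1 fell in shGLO1#2. Over all genes, 22.6% rose and 23.1% fell in shGLO1#1. In shGLO1#2, 18.3% rose and 19.8% fell, so the counts there were near the share of all genes. ABCA1, which pumps cholesterol out to lipid-poor apolipoproteins, had the largest rise of the 37 in shGLO1#1. It was at 14.4, 21.2 and 28.1 CPM in shNT, at 74, 91.6 and 119 CPM in shGLO1#1 and at 18.4, 23.8 and 27.9 CPM in shGLO1#2. The shGLO1#1 libraries lay far above the others, and shNT and shGLO1#2 overlapped. ABCA1 was 4.44-fold higher in shGLO1#1 (log2FC 2.15, SE 0.21, adjusted p = 2.94e-06), and its log2FC was 0.13 in shGLO1#2 (SE 0.23, adjusted p = 0.7). ABCG1, the pump that loads cholesterol onto high-density lipoprotein, had 0, 3 and 8 counts in the shNT libraries, 6, 7 and 6 in shGLO1#1 and 17, 24 and 21 in shGLO1#2. At this depth its level was low everywhere, at most 1.34 CPM. The log2FC of ABCG1 was 2.40 in shGLO1#2 (SE 0.49, adjusted p = 0.00151) and 0.67 in shGLO1#1 (SE 0.62, adjusted p = 0.4). The shGLO1#2 value is a description, as the filter on low counts kept the gene only because of its level there. Without shNT replicate 3 these ABCG1 values were 3.54 (adjusted p = 0.000608) and 1.80 (adjusted p = 0.0716).

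NPC1, which exports cholesterol from lysosomes, fell in both clones. It was at 445, 453 and 442 CPM in shNT, at 275, 266 and 266 CPM in shGLO1#1 and at 256, 265 and 253 CPM in shGLO1#2. The spread within each group was small beside the fall, 1.66-fold in shGLO1#1 (log2FC -0.73, SE 0.05, adjusted p = 6.46e-08) and 1.73-fold in shGLO1#2 (-0.79, SE 0.05, adjusted p = 4.13e-08). STARD4, a carrier of sterols between membranes, fell in shGLO1#1 from 134 ± 13.3 to 99.9 ± 6.44 CPM (adjusted p = 0.000276). It was at 148 ± 3.7 CPM in shGLO1#2, where the adjusted p was 0.155, and 0.036 without shNT replicate 3 (log2FC 0.21). MYLIP, a ubiquitin ligase of lipoprotein receptors and a liver X receptor target, rose in shGLO1#1 from 23.3 ± 0.813 to 30.5 ± 1.55 CPM (adjusted p = 0.00432). The shGLO1#2 mean was 23.7 ± 3.05 CPM (adjusted p = 0.889).

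**Figure D3:**
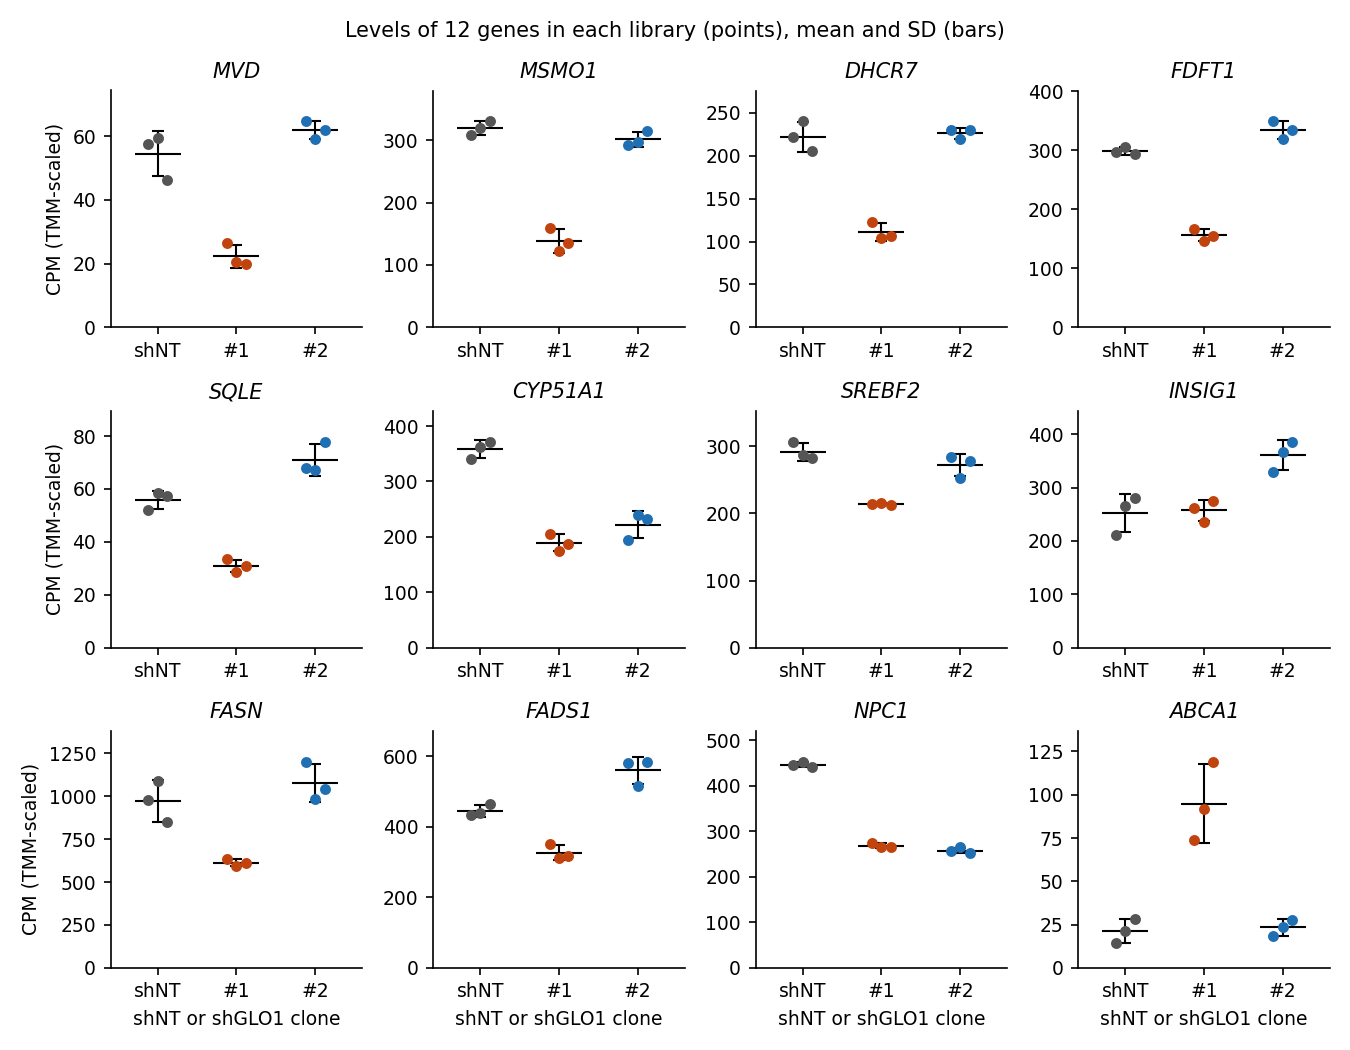
CPM (TMM-scaled, vertical axes from 0) of 12 of the genes in each library (points) of shNT (grey), shGLO1#1 (orange) and shGLO1#2 (blue), with mean and SD. The shGLO1#1 points lie below shNT in 10 of the panels, overlap it for INSIG1 and lie above it for ABCA1, while those of shGLO1#2 lie below shNT for CYP51A1 and NPC1.

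Of the 8 fatty acid and lipid synthesis genes, 6 fell and 1 rose in shGLO1#1 (median log2FC -0.36), and 1 fell and 3 rose in shGLO1#2 (median 0.10). The shares of all genes that fell and rose were 23.1% and 22.6% in shGLO1#1 and 19.8% and 18.3% in shGLO1#2. FASN, the fatty acid synthase, was at 978, 1090 and 848 CPM in shNT, at 634, 591 and 613 CPM in shGLO1#1 and at 1200, 985 and 1040 CPM in shGLO1#2. It fell 1.59-fold in shGLO1#1 (log2FC -0.66, SE 0.09, adjusted p = 3.13e-05), while shGLO1#2 overlapped shNT (0.15, SE 0.09, adjusted p = 0.197). Without shNT replicate 2, FASN in shGLO1#2 passed the test (0.23, adjusted p = 0.0494). ACLY, which supplies cytosolic acetyl-CoA, was at 698 ± 11 CPM in shNT, at 554 ± 3.12 in shGLO1#1 and 724 ± 19.7 in shGLO1#2. Its fall in shGLO1#1 was 1.26-fold (adjusted p = 4.22e-05), and its adjusted p was 0.379 in shGLO1#2.

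The desaturases FADS1 and FADS2, which make polyunsaturated fatty acids, fell in shGLO1#1 and rose in shGLO1#2. FADS1 was at 433, 439 and 464 CPM in shNT, 350, 312 and 317 CPM in shGLO1#1 and 580, 516 and 584 CPM in shGLO1#2. FADS2 was at 491, 471 and 448 CPM, 383, 345 and 353 CPM, and 629, 544 and 619 CPM in the same order. No groups overlapped for either gene. The log2FC values in shGLO1#1 were -0.45 for FADS1 (SE 0.06, adjusted p = 6.18e-05) and -0.38 for FADS2 (SE 0.06, adjusted p = 0.000284). In shGLO1#2 they were 0.33 (SE 0.06, adjusted p = 0.000817) and 0.35 (SE 0.06, adjusted p = 0.000759). FADS1 and FADS2 overlap each other on the genome, and the library kit does not mark the strand. Reads that fitted more than 1 gene were counted apart as ambiguous. The effect of the overlap on the FADS1 and FADS2 values was not tested.

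LPIN1, a phosphatidate phosphatase of triglyceride synthesis, rose in both clones. It was at 121, 146 and 150 CPM in shNT, at 216, 195 and 211 CPM in shGLO1#1 and at 200, 190 and 192 CPM in shGLO1#2, with no overlap between shNT and either clone. Its log2FC was 0.58 in shGLO1#1 (SE 0.07, adjusted p = 2.98e-05) and 0.48 in shGLO1#2 (SE 0.07, adjusted p = 0.000174). ELOVL6, an elongase of saturated fatty acids, fell in both, from 144 ± 11.6 CPM to 108 ± 2.84 in shGLO1#1 (adjusted p = 0.000119) and 120 ± 4.09 in shGLO1#2 (adjusted p = 0.00453). SCD, the stearoyl-CoA desaturase, passed the test in neither clone. It was at 2200 ± 92.9 CPM in shNT, at 2030 ± 87.1 in shGLO1#1 (adjusted p = 0.146) and 2080 ± 175 in shGLO1#2 (adjusted p = 0.319).

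ACACA, the acetyl-CoA carboxylase that commits carbon to fatty acids, was at 243 ± 11.9 CPM in shNT, at 215 ± 14 in shGLO1#1 and 229 ± 9.82 in shGLO1#2. It fell in shGLO1#1 by 0.18 on the log2 scale (SE 0.06, adjusted p = 0.0237). This call of ACACA ended without shNT replicate 2 (-0.19, adjusted p = 0.0509), shNT replicate 3 (-0.14, 0.103), shGLO1#1 replicate 1 (-0.17, 0.0711) or shGLO1#1 replicate 2 (-0.14, 0.119). In shGLO1#2 its adjusted p was 0.287.

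Read gene by gene over both comparisons, 5 genes fell in shGLO1#1 and rose in shGLO1#2 (EBP, FADS1, FADS2, FDFT1 and SQLE), where 1.8% of all genes did so. None rose in shGLO1#1 and fell in shGLO1#2, as did 1.96% of all genes. LPIN1 was the 1 gene that rose in both (9.32% of all genes), and CYP51A1, ELOVL6 and NPC1 were the 3 that fell in both (9.22%). Since the comparisons share the shNT libraries, these counts are a description. The shGLO1#2 calls of EBP and FDFT1 also ended when certain single libraries were left out, as given above.

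The direct contrast of the clones is also only a description, since the list was proposed for it. In 27 of the 37 genes every shGLO1#2 library was above every shGLO1#1 library, and in 4 (ABCA1, MYLIP, NPC1 and SCAP) every one was below. Over all genes these shares were 26.9% and 28.5%. The 27 include ABCG1, which passed the filter only through its shGLO1#2 counts, so its place among them supports nothing. The median log2 difference, shGLO1#2 minus shGLO1#1, was 0.52 for the 37 genes and -0.01 over all genes. The synthesis genes with the widest gaps on this scale were MVD at 1.48 (SE 0.11), HMGCS1 at 1.30 (SE 0.15), SQLE at 1.20 (SE 0.08), ACAT2 at 1.14 (SE 0.07) and MSMO1 at 1.12 (SE 0.08). The efflux genes lay beyond these on both sides, ABCG1 at 1.73 (SE 0.43, on few counts) and ABCA1 at -2.02 (SE 0.21). ACACA, CYP51A1, LPIN1, PMVK, SCD and SREBF1 had overlapping libraries in the clones. Against shNT, 29 of the 37 genes had all shGLO1#1 libraries below and 4 had all above (28% of all genes each way). For shGLO1#2 these counts were 3 and 8 (24.3% and 23%), and the 8 again include ABCG1.

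A contrast that the list did not use was the replicate number, whose meaning the labels do not give. With the group in the model, 3 of the 37 genes were higher in replicate 3 than in replicate 1 and none was lower, beside 5.03% and 5.2% of all genes. ABCA1 was higher by 0.73 on the log2 scale (SE 0.07, adjusted p = 3.6e-05), HMGCS1 by 0.34 (adjusted p = 0.0286) and INSIG1 by 0.23 (adjusted p = 0.0283). In every group ABCA1 was lowest in replicate 1 and highest in replicate 3. The count of 3 became 1 without the shNT libraries, 6 without shGLO1#1 and 1 without shGLO1#2.

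Further genes of these pathways lay outside the 37, and their counts are to be read beside the shares of all genes. In shGLO1#1 23.1% of all genes fell and 22.6% rose, and in shGLO1#2 19.8% fell and 18.3% rose. The counts are not set against those of the 37, since the 37 were selected on these libraries. Of 22 other sterol and SREBP pathway genes tested, 10 fell and 5 rose in shGLO1#1, and 5 fell and 4 rose in shGLO1#2. TMEM97, a sterol-regulated membrane protein that binds NPC1, fell in shGLO1#1 from 65 ± 5.23 to 45.3 ± 5.19 CPM (adjusted p = 0.00192), and was at 71.6 ± 12 CPM in shGLO1#2 (adjusted p = 0.352). SOAT1, which esterifies cholesterol for storage, fell in both clones, from 277 ± 22.1 CPM to 221 ± 4.86 in shGLO1#1 (adjusted p = 0.00588) and 204 ± 27.1 in shGLO1#2 (adjusted p = 0.000904). INSIG2, the relative of INSIG1, rose in both clones, by 0.24 and 0.35 on the log2 scale (adjusted p = 0.00758 and 0.000705).

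Of 12 genes of isoprenoid branches that leave the sterol pathway, 3 fell in shGLO1#1 and none rose, and 3 fell and 1 rose in shGLO1#2, so that the falls were near the share of all genes (23.1% and 19.8%). ICMT, which methylates prenylated proteins, fell from 329 ± 8.69 CPM to 223 ± 7.34 in shGLO1#1 (adjusted p = 1.77e-06) and to 283 ± 13.2 in shGLO1#2 (adjusted p = 0.0041). Of 17 tested sterol transport and liver X receptor genes, 2 fell and 3 rose in shGLO1#1, and 6 fell and 3 rose in shGLO1#2. LIPA, the lysosomal lipase that frees cholesterol from lipoprotein esters, fell from 272 ± 17.3 CPM to 139 ± 3.9 in shGLO1#1 (log2FC -0.97, adjusted p = 8.02e-08) and to 183 ± 11.6 in shGLO1#2 (-0.57, adjusted p = 8e-06). SMPDL3A, a liver X receptor target, rose by 0.70 on the log2 scale in shGLO1#1 (adjusted p = 0.00027) and fell by 0.44 in shGLO1#2 (adjusted p = 0.0133). SCARB1, the receptor of high-density lipoprotein, fell by 0.31 in shGLO1#1 (adjusted p = 0.00599) and rose by 0.35 in shGLO1#2 (adjusted p = 0.00337). NR1H3, which encodes liver X receptor alpha, fell in shGLO1#2 from 13.7 ± 1.91 to 9.93 ± 1.44 CPM (adjusted p = 0.0133), and was at 12.5 ± 0.398 CPM in shGLO1#1 (adjusted p = 0.437).

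Of 22 other fatty acid synthesis genes tested, 12 fell and 3 rose in shGLO1#1, and 7 fell and 2 rose in shGLO1#2. ACSS2, which makes acetyl-CoA from acetate and is an SREBP target, fell in shGLO1#1 from 111 ± 12 to 62 ± 8.29 CPM (log2FC -0.84, adjusted p = 3.98e-05), with 115 ± 15.3 CPM in shGLO1#2 (adjusted p = 0.734). FADS3, the third gene of the FADS cluster, fell there from 63.4 ± 7.25 to 26.3 ± 1.1 CPM (-1.27, adjusted p = 2.91e-07), with 55 ± 5.79 CPM in shGLO1#2 (adjusted p = 0.102). SCD5, the second human stearoyl-CoA desaturase, rose in both clones, by 1.07 in shGLO1#1 (adjusted p = 5.25e-07) and 0.83 in shGLO1#2 (adjusted p = 6.62e-06). ACACB, the mitochondrial acetyl-CoA carboxylase, rose by 0.75 (adjusted p = 0.000578) and 0.49 (adjusted p = 0.013). ACSL5, an acyl-CoA synthetase, fell in both clones, by 0.47 (adjusted p = 1.02e-05) and 0.49 (adjusted p = 9.17e-06). ELOVL5, an elongase, also fell in both, by 0.17 (adjusted p = 0.0109) and 0.41 (adjusted p = 2.37e-05).

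**Figure D4:**
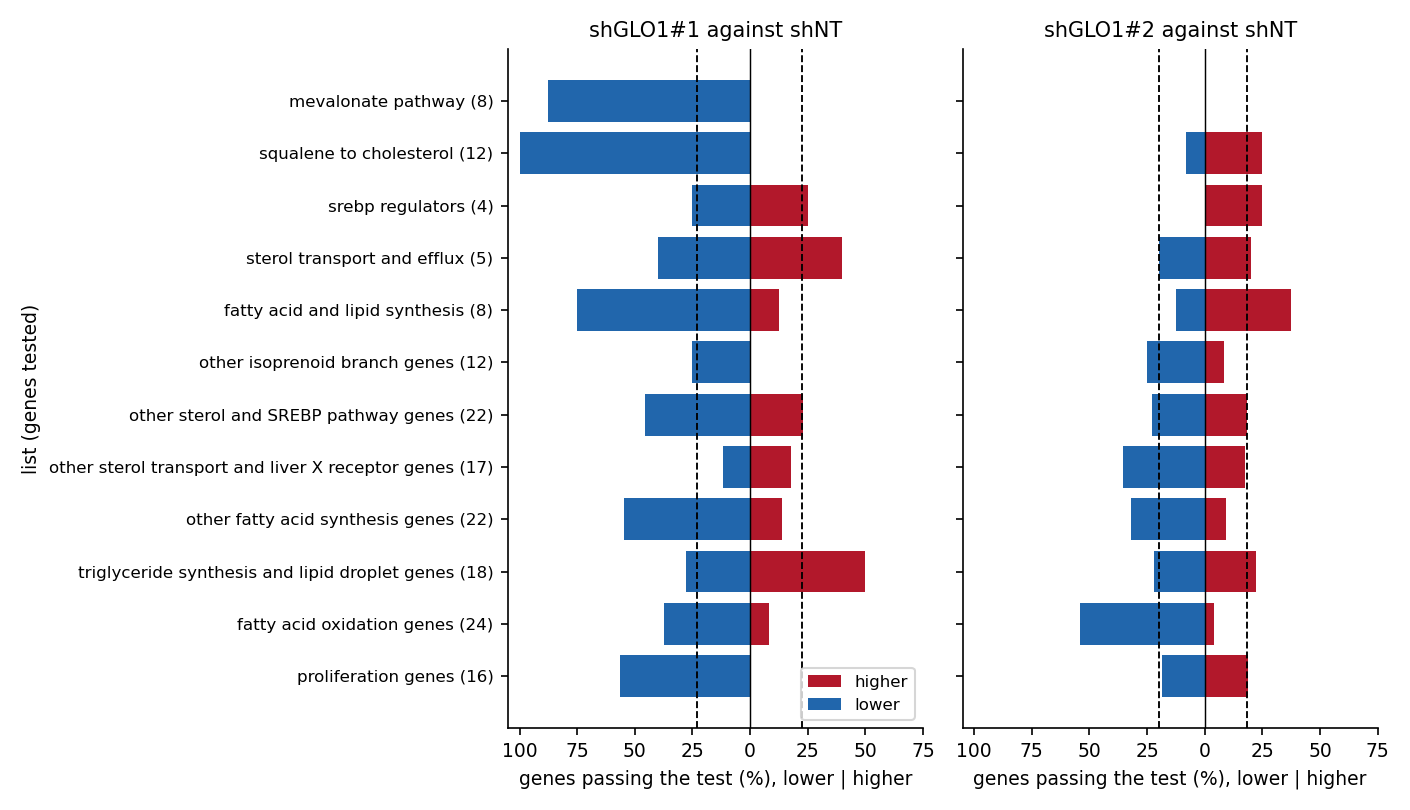
Percent of the tested genes of each list that passed the test as lower (blue, left) or higher (red, right) in shGLO1#1 and shGLO1#2 against shNT; dashed lines give the percent of all genes tested. In shGLO1#1 the mevalonate (7 of 8) and squalene to cholesterol (12 of 12) bars reach farthest left, and in shGLO1#2 that of fatty acid oxidation does (13 of 24).

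Some other measures also differed between the groups, and whether they had a part in these results was not tested. Alignments on no annotated gene made up 14.5 to 15.2% of those counted in shGLO1#1. They made up 12.8 to 13.3% in shNT and 13 to 13.3% in shGLO1#2. Of 16 proliferation genes, 9 fell and none rose in shGLO1#1, where 23.1% of all genes fell and 22.6% rose. In shGLO1#2, 3 fell and 3 rose, near the 19.8% and 18.3% of all genes. The summed level of the 16 genes was 4760 to 5390 CPM in shNT, 4050 to 4490 CPM in shGLO1#1 and 4520 to 5020 CPM in shGLO1#2. The labelled cell line was checked by its markers, with vimentin at 3330, 3160 and 4140 CPM in shNT, shGLO1#1 and shGLO1#2, and ESR1 and PGR, which the line lacks, summed to at most 0.679 CPM. Markers of adipocytes, which also make lipids, summed to between 0.335 and 1.22 CPM, with LEP at 0 in every library. Hepatocyte markers summed to 0.47 to 1.63 CPM in shNT, 7.98 to 9.26 CPM in shGLO1#1 and 7.67 to 8.07 CPM in shGLO1#2, nearly all SERPINA1, and TTR was at 0 in every library. Leukocyte markers (7.56 to 10.7, 2.41 to 3.36 and 3.18 to 4.96 CPM) and fibroblast markers (10.2 to 17.3, 12.6 to 15.2 and 13.5 to 22.7 CPM) were also low.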

How the data were processed

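Total RNA of MDA-MB-231 cells (shNT, shGLO1#1 and shGLO1#2, 3 samples each) was made into libraries with a TruSeq kit that does not mark the strand. Per the submitters' processing notes and the labels, the authors used bcl2fastq 2.17, TopHat2 2.1.1 with hg19, and HTSeq (version, annotation and strand setting not given in the sources used here). What was deposited are raw counts per gene symbol, 15314238 to 18495576 on genes per library (77.1 to 79.5% of counted alignments). Rows that name no gene were left out. No libraries were copies of each other (chi-square per degree of freedom 2.98 to 8.14). The sources do not say whether replicates were separate cultures, and deeper counts narrow only the counting error.

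Counts were fitted in edgeR 4.0.16 (R 4.3.3) with filterByExpr (minimum count 10, minimum total 15), TMM (factors 0.972 to 1.04) and the quasi-likelihood test over all 9 libraries, with Benjamini-Hochberg adjustment over 13704 genes. "Rose" and "fell" mean an adjusted p under 0.05. The SE was taken from the log2 fold change and its F statistic (change over root F). The TMM factors were 1.02 to 1.04 in shGLO1#1 and 0.972 to 0.997 in the other groups. CPM are on TMM-scaled sizes, as mean ± SD of 3 libraries. The models were tested on simulated data. Replicate numbers paired shNT and shGLO1#2 (correlations of deviations 0.21, 0.19 and 0.31), from the data alone, so that values with a replicate block are given where they change a call there.

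Alternatives were RLE scaling, DESeq2 1.42.0, other filters, only the groups compared, the block, the fold limit and each replicate left out, for the 37 genes. Named are all 37 genes, and from each other list and clone up to 3 rising and 3 falling genes of at least 5 CPM with the largest changes, of which some are not reported here. The genes and lists were chosen with earlier results of these data known, so their counts are not independent evidence. Gene neighbours and promoters come from GRCh38.p14. Motifs were searched on both strands.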

Additional observations from a re-analysis of the deposited data

Results flagged for a closer look

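Of the 37 genes, 5 had every shGLO1#1 library below shNT and every shGLO1#2 library above it. Over all genes, 28% had all shGLO1#1 libraries below shNT, and 23% had all shGLO1#2 libraries above it. The share of all genes with both was not counted. By the test, 1.8% of all genes fell in shGLO1#1 and rose in shGLO1#2. The difference in log2 fold change, shGLO1#2 minus shGLO1#1, was 1.10 for FDFT1, 1.20 for SQLE, 0.90 for EBP, 0.78 for FADS1 and 0.73 for FADS2. This difference was not tested, since the list was proposed for a difference between the clones. No outlying libraries were sought within groups, which held 3 libraries each.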

How the results depend on the processing

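Each clone was 1 line measured in 3 libraries, so the differences between clones rest on 1 line each. Depth limits ABCG1 most, with at most 24 counts in a library. The counts of genes that passed the test stayed within 1.5 times under RLE scaling, DESeq2, the other filters and the 2-group models. With the fold limit shGLO1#1 had 1 gene higher and 3 lower, and shGLO1#2 had 1 and 0. Leaving out each replicate gave 3 to 5 higher and 27 to 28 lower in shGLO1#1, 6 to 10 higher and 3 lower in shGLO1#2, and a median difference between the clones of 0.51 to 0.58. The 3 genes higher in replicate 3 than in replicate 1 became 1 without shNT, 6 without shGLO1#1 and 1 without shGLO1#2, and the cause was not tested.

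With the replicate block, shGLO1#1 had 5 genes higher and 29 lower and shGLO1#2 had 10 and 3, and the median difference between the clones was 0.52. For shNT and shGLO1#1 the numbers did not pair the libraries (correlations -0.034, 0.056 and 0.25). There the block added SCAP (0.17, adjusted p = 0.0336) and SCD (-0.12, adjusted p = 0.033). In shGLO1#2 it added HMGCS1 and SREBF1 and changed no other call.

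Of the 74 fold changes, 55 kept direction and side of the threshold in each alternative fitted for them. ABCG1 had no value with the 1 CPM filter or, in shGLO1#1, in the 2-group model, and the fold limit was applied to counts of genes only. The 8 that turned sign had not passed the test. Leaving out replicates, the log2 fold change ran from -0.14 to 0.01 for PMVK and -0.09 to 0.11 for INSIG1 in shGLO1#1. In shGLO1#2 it ran from -0.08 to 0.08 for PMVK, -0.09 to 0.07 for IDI1, -0.02 to 0.08 for DHCR7, -0.10 to 0.01 for SCAP, -0.08 to 0.40 for ABCA1 and -0.08 to 0.11 for MYLIP. IDI1 in shGLO1#2 was 0.00 to 2 decimals with RLE scaling, the filter at 1 CPM, the 2-group model and DESeq2. With 50 bases after the start added, TCACNCCAC remained in 1 of 32 promoters (3.12%, against 1.12% of tested genes), and the shorter TCACNCCA was in 3 (MVK, MSMO1 and SREBF2, 9.38% against 2.71%).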

Other observations

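Of 18 triglyceride and lipid droplet genes tested outside the 37, 9 rose and 5 fell in shGLO1#1, where 22.6% of all genes rose and 23.1% fell. In shGLO1#2, 4 rose and 4 fell, near the 18.3% and 19.8% of all genes. DGAT2, which completes triglycerides, rose from 5.67 ± 1.98 CPM in the control to 18.5 ± 2.64 in shGLO1#1 (log2 fold change 1.69, SE 0.19, adjusted p = 1.17e-05) and 15.3 ± 1.7 in shGLO1#2 (1.41, SE 0.20, adjusted p = 7.5e-05). GPAT3, an acyltransferase of the first step, rose from 54.8 ± 1.67 CPM to 91.5 ± 6.1 (adjusted p = 1.29e-06) and 77.6 ± 4.56 (adjusted p = 4.88e-05). MGLL, the monoglyceride lipase, fell from 185 ± 15.6 CPM to 67.6 ± 1.88 (log2 fold change -1.45, adjusted p = 5.7e-09) and 120 ± 4.22 (-0.62, adjusted p = 4.98e-06). PLIN2, a coat protein of lipid droplets, fell in shGLO1#1 from 195 ± 15.9 to 131 ± 9.96 CPM (adjusted p = 2.88e-05), and was at 183 ± 11.4 CPM in shGLO1#2 (adjusted p = 0.337).

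Of 24 fatty acid oxidation genes tested, 9 fell and 2 rose in shGLO1#1, and 13 fell and 1 rose in shGLO1#2, beside 23.1% and 19.8% of all genes that fell. ECI2, an isomerase for unsaturated fatty acids, fell from 106 ± 2.77 CPM to 93.7 ± 4.05 in shGLO1#1 (log2 fold change -0.18, adjusted p = 0.0224) and 46.7 ± 2.82 in shGLO1#2 (-1.18, SE 0.06, adjusted p = 1.82e-08). CPT2, the inner carnitine palmitoyltransferase, fell from 27.7 ± 4.71 CPM to 20.8 ± 1.32 in shGLO1#1 (adjusted p = 0.00911) and 13.9 ± 0.79 in shGLO1#2 (adjusted p = 2.04e-05). PPARA, which encodes a nuclear receptor that drives these genes, fell from 41.1 ± 7.87 CPM to 29.6 ± 1.71 (adjusted p = 0.00648) and 19.9 ± 2.49 (adjusted p = 2.32e-05). CPT1C, a carnitine palmitoyltransferase known from neurons, rose in shGLO1#2 from 21 ± 0.583 to 32.8 ± 2.3 CPM (adjusted p = 5.6e-05), with 20 ± 1.67 CPM in shGLO1#1 (adjusted p = 0.538). HADHB, the thiolase subunit of the trifunctional protein, rose in shGLO1#1 from 80.5 ± 3.06 to 108 ± 2.08 CPM (adjusted p = 3.15e-05), with 78.2 ± 2.94 CPM in shGLO1#2 (adjusted p = 0.613).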
